A study of Mus musculus with 3 samples.

Results

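CD133+ cells of the bone marrow from mice labelled 27 months old were set against CD133+ cells of the library titled Ctrl, from mice labelled 3 months old. Both libraries came from C57BL/6 mice, and no other treatment or allele is given for either. Cells were stained for CD133, sorted by FACS and sequenced with the Chromium Single Cell 3' v2 chemistry, in which each RNA molecule is counted once through a unique molecular identifier (UMI). Each library pooled the cells of 3 mice. Differences from mouse to mouse are therefore not visible, and age was not tested. The sample label gives 27 months for the old mice, whereas the design text of the series gives 18.5 months and calls the cells intestinal. The third library, titled Young and also labelled 3 months, is given beside the control to show how far a pair of libraries of one labelled age lay apart. Cells with at least 200 detected genes, at most 20% mitochondrial UMIs and a UMI total between the 5th and the 95th percentile of their own library were kept. These limits left 9537 of 10597 old and 9780 of 10869 control cells, in all 19317 of the 29828 cells of the series.

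CD133, encoded by Prom1, is a membrane protein used to enrich stem and progenitor cells, and the study describes the sorted cells as endothelial-like. Neutrophils arise in the marrow from promyelocytes, which fill azurophil granules with myeloperoxidase (Mpo), elastase and cathepsin G. Later precursors make specific granules, and the most mature cells make gelatinase granules and the receptors with which they leave for the blood. Transcription of Mpo stops as the cells pass the promyelocyte stage, so the number of Mpo UMIs per 10000 UMIs of a cell orders the cells along this path. Cells at 40 or more are called the high band here, cells from 10 to below 40 the mid band, and cells below 10 the low band.

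The defining markers of the neutrophil lineage were abundant in both libraries, and those of endothelium were not. Camp, an antimicrobial peptide of specific granules, stood at 52610 UMIs per 1000000 UMIs (CPM) in control and 36860 CPM in old cells. Elane, neutrophil elastase, stood at 7117 and 4824 CPM. Prom1 itself was at 52.6 CPM in control, 46.5 CPM in old and 43.3 CPM in young cells. Of 24 endothelial genes, 2 reached 10 CPM in either library, namely Icam2 and Erg. Cdh5, the endothelial cadherin, had 3 UMIs in all control cells and 0 in all old cells, which allows up to 0.0244 CPM. Kdr, a receptor of vascular endothelial growth factor, had 9 and 2 UMIs. The cells are therefore described below by their neutrophil stage and not as endothelial cells.

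The kept cells held 95980225 UMIs in the control and 122803960 in the old library. Old cells were deeper, with a median of 13039 UMIs and 2342 genes against 9560.5 UMIs and 1947 genes in control. All values below are therefore CPM of summed UMIs unless stated otherwise, and their intervals are exact 95% intervals that cover counting error only. Because UMIs are summed over cells, fewer cells of a type and less RNA per cell cannot be told apart. The Y-linked genes Ddx3y and Eif2s3y lay between 16.4 and 37.5 CPM in the 3 libraries. Wdfy1, a gene whose level differs between C57BL/6 substrains, was at 34.8 CPM in control, 38.7 CPM in old and 9.86 CPM in young cells. The young library also held more cells with markers of other blood cells, 13.2% against 1.73% in control and 1.37% in old. The control and old libraries shared 161 cell barcodes, 129 of them kept in both.

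Fewer old cells were rich in Mpo. The high band held 15.1% of control cells (interval 14.4 to 15.8), 11.3% of old cells (10.6 to 11.9) and 17.7% of young cells. The mid band held 11.7%, 12.9% and 8.47%, and the low band 73.2%, 75.8% and 73.8%, in the same order. The share in the high band was thus lowest in the old library, and the difference between the control and young libraries was in the opposite direction. Moving the limits to 20 and 5 Mpo UMIs per 10000 turned the difference of the mid band from 1.23 percentage points higher to -9.27 in old, while the high and low shares kept their direction under both other pairs of limits. Median depth was greater in old cells in every band, at 15510 against 12677 UMIs in the high, 15148 against 11482 in the mid and 12155 against 8914 in the low band.

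Over all cells, more of the old cells had a high sum of late maturation transcripts, but not in the mid band. A sum of 8 genes of maturing neutrophils, with Retnlg, Mmp8, Mmp9, Cxcr2, Csf3r, Il1b and Ccl6 among them, reached 20 or more UMIs per 10000 in 5.14% of control, 18.4% of old and 12.7% of young cells. In the low band the shares were 6.31% (interval 5.76 to 6.90) in control, 23.7% (22.8 to 24.7) in old and 15.6% (14.7 to 16.6) in young cells. In the mid band the share was lowest in old, at 3.58% of control (interval 2.58 to 4.83), 1.70% of old (1.06 to 2.59) and 8.79% of young cells. It rested there on 41 control and 21 old cells. This class is a range of a continuous score and not a cell type, and 73 control and 269 old cells of the low band lay within 10% of its limit. The low-band cells in it were shallower than the rest of their band, with a median of 4780 UMIs in control, 8668.5 in old and 4606.5 in young cells. Their median sum of 6 promyelocyte genes was 22.7 UMIs per 10000 in control and 16.8 in old cells, against 26.9 and 23.7 below the limit. These cells were chosen for low Mpo, so low promyelocyte sums on both sides of the limit may follow from that choice. In the high band the median of the maturation sum was 2.49 per 10000 in control, 5.08 in old and 5.30 in young cells. In the mid band it was 2.89, 5.84 and 5.81, so there the median was higher in old than in control although the share at the limit was lower. Whether the cells of these bands made these transcripts themselves was not tested. In both bands the control library had the lowest median of the 3, and the young library lay nearer to the old one.

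**Figure D1:**
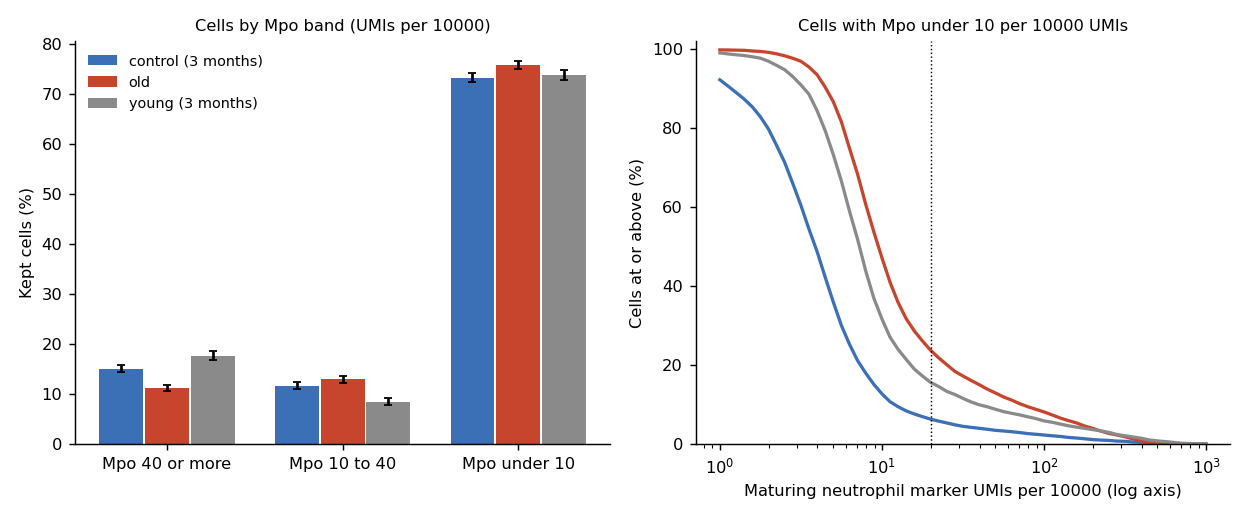
Left, the percentage of kept cells in each band of Mpo UMIs per 10000 UMIs, by library, with exact 95% intervals; right, the percentage of low-band cells at or above each value of the maturing neutrophil sum (UMIs per 10000, log axis), with a dotted line at 20. The old library has the smallest high band (11.3%), and at the dotted line its curve lies at 23.7% against 6.31% for the control.

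Genes were counted where their level in the old library differed from control by 1.5 times or more, provided that one of both levels reached 10 CPM. Over all cells 289 of 5466 genes were higher in old by this limit, 5.29%, and 441 were lower, 8.07%. Centred on the median gene, whose log2 ratio was -0.07, the counts became 357 higher and 315 lower, so the excess of lower genes depended on the scale. Without scaling for depth the median log2 ratio became 0.34, and the log2 ratios below should be read against -0.07. In the high band 310 of 6116 genes were higher (5.07%) and 302 lower (4.94%). In the mid band 323 of 5713 were higher (5.65%) and 428 lower (7.49%). In the low band 337 of 5139 were higher (6.56%) and 375 lower (7.3%). Of the 289 higher genes 286 had a positive log2 ratio in all 3 bands, and of the 441 lower genes 437 a negative one. This counts signs and not sizes, since 127 genes were higher and 85 lower by 1.5 times in all 3 bands. With the old bands weighted to the shares of the control library, 290 genes were higher and 309 lower over all cells. Between the control and young libraries, both labelled 3 months, 104 of 5725 genes were higher in control (1.82%) and 383 lower (6.69%). In the high band 327 of 6329 genes were higher in control than in young and 457 lower. In the mid band 288 of 5874 were higher and 362 lower, and in the low band 80 of 5409 and 437. Differences of 1.5 times were thus also found between libraries of one labelled age. In the high band more genes were lower between control and young than between old and control, and the share of higher genes was alike. In the low band fewer genes were higher between control and young than between old and control, and more were lower.

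Where the old or the control level was 50 CPM or more and all bands had 1 direction, the highest ratios belonged to Ifitm1, a run of stefin A genes, Wfdc17, Asprv1 and S100a6. Ifitm1 (ENSMUSG00000025491; GRCm38 chr7:140967221-140969825), an interferon-inducible membrane protein, was at 8.07 CPM in control, 329.6 CPM in old and 28.6 CPM in young cells. Its log2 ratio of old over control was 5.35 (5.25 to 5.46), and it was 4.78, 4.51 and 5.49 in the high, mid and low bands. The difference was present in every band. Wfdc17, a secreted protein of the whey acidic protein family, was at 13.3 CPM in control, 299.4 CPM in old and 50.01 CPM in young cells, a log2 ratio of 4.50. Asprv1, an aspartic protease of maturing neutrophils, was at 3.18, 70.3 and 6.46 CPM, a log2 ratio of 4.47. S100a6, a calcium-binding protein, was at 218, 1938 and 479 CPM, a log2 ratio of 3.15 (3.13 to 3.17). For each of these 4 genes the young level was above the control level and far below the old one.

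The next genes in this order had several roles. Il1f9, a cytokine of the interleukin 1 family, was at 10.1 CPM in control and 54.2 CPM in old cells (log2 ratio 2.42). H1f0, a linker histone of non-dividing cells, was at 18.7 and 100.2 CPM, also a log2 ratio of 2.42, and its ratios in the 3 bands lay between 2.34 and 2.51. Ceacam10, an adhesion molecule of specific granules, was at 31.2 and 116 CPM, and Tpd52, a vesicle trafficking protein, at 18.7 and 67.6 CPM. The young library held these 4 genes at 11.7, 24.01, 35.4 and 26.4 CPM, nearer to the control than to the old library. Retnlg, a secreted resistin-like protein of mature neutrophils, was at 465, 1393 and 1032 CPM in control, old and young. Mmp8, the neutrophil collagenase, was at 41.5, 155 and 105 CPM. For Retnlg and Mmp8 the young library thus lay nearer to the old than to the control library, and both belong to the maturation sum described above. In the mid band their log2 ratios were 0.35 and 0.12, against 1.65 and 1.94 in the low band. Clu, the extracellular chaperone clusterin, was at 2.48 CPM in control, 24.5 CPM in old and 1.08 CPM in young cells. Over all cells it stayed under 50 CPM and so outside this order, although its log2 ratio was 3.31, and in the high band it was 3.08.

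**Figure D2:**
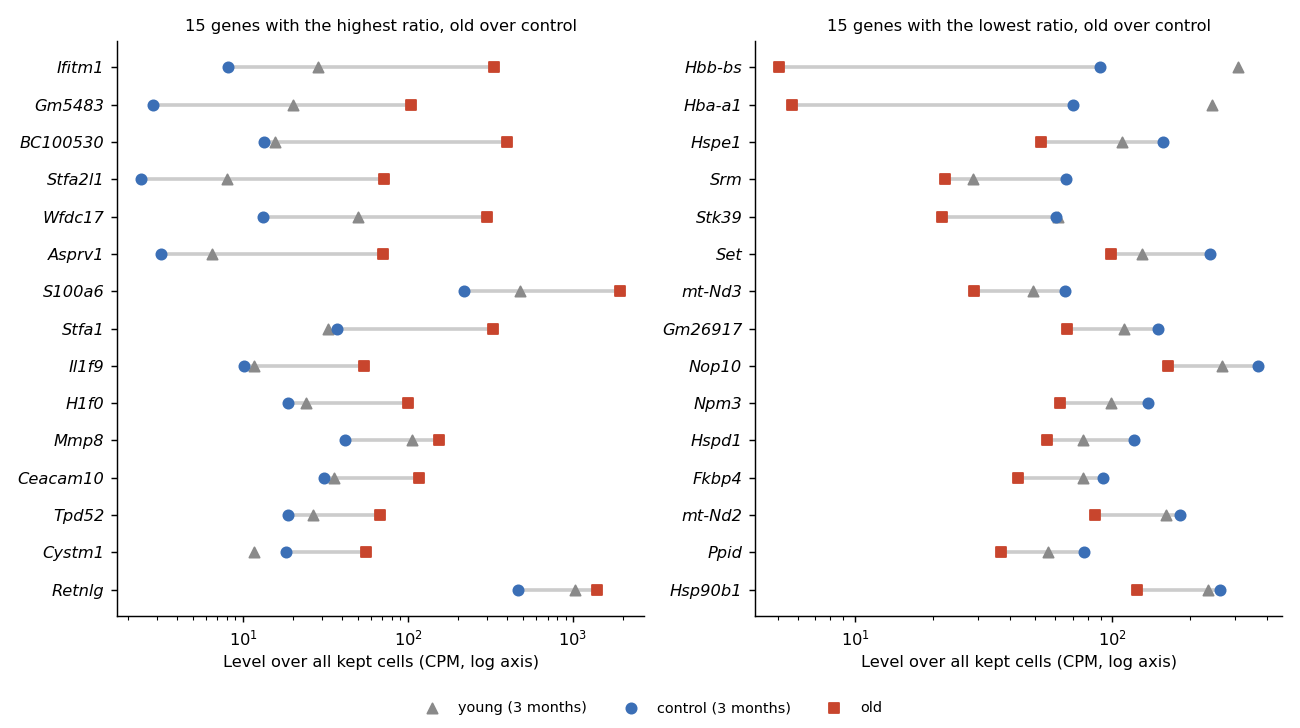
CPM over all kept cells (log axis) of 30 genes, the 15 at the top and the 15 at the bottom of the ratio of old over control for genes at 50 CPM or more in old or control and of 1 direction in all bands, 1 point for each of the 3 libraries. Ifitm1 moves from 8.07 CPM in control to 329.6 CPM in old, and the haemoglobin genes Hbb-bs and Hba-a1 lie highest in the young library.

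Stefin A proteins inhibit cysteine proteases such as cathepsins and are encoded in the mouse by a cluster of near-identical genes on chromosome 16. Together with Cstb, the related stefin B, the 11 of 14 listed genes found in the files summed to 123 CPM in control, 1070 CPM in old and 162 CPM in young cells. BC100530 (chr16:36359382-36367748) was at 13.3 CPM in control, 395.5 CPM in old and 15.7 CPM in young cells. Stfa1 was at 37.1, 328.8 and 32.8 CPM, Gm5483 at 2.87, 103.8 and 20.1 CPM, and Stfa2l1 at 2.41, 71.1 and 7.96 CPM. Every one of these genes was highest in the old library, with log2 ratios over control from 3.15 for Stfa1 to 5.18 for Gm5483. Stfa2, named after its values were seen, had 19 UMIs in control and 4662 in old cells. The 7 genes that reached 10 CPM had a median log2 ratio of 4.89, and the median of the same 7 genes was 4.94 in the high, 3.98 in the mid and 4.93 in the low band. Several of them reached 10 CPM only through the old library, so this median describes these genes and not the family. In the high band and in the mid band 5 of the 7 reached 10 CPM. Control levels there were near the floor, with Stfa2l1 at 0.28 CPM in the high band (log2 ratio 5.22, 3.97 to 6.86). Few cells held many of the UMIs. The 1% of cells with most held 66.5% of BC100530 UMIs in control and 33.4% in old, and 100% and 51.1% of those of Gm5483. Cstb, encoded elsewhere in the genome, was at 65.5, 88.2 and 80.6 CPM, a log2 ratio of 0.43. Reads of near-identical copies may be divided among them during counting, so the sum is firmer than any single member. With cells of 20 or more maturation UMIs per 10000 left out, an alternative chosen after seeing the data, the median was 4.37, and the log2 ratios were 3.64 for Wfdc17 and 3.76 for Asprv1.

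All 4 Ifitm genes that reached 10 CPM, of 7 listed, were higher in old by 1.5 times or more, where 5.29% of all genes were. Ifitm1 reached 10 CPM only through the old library. Besides Ifitm1, Ifitm2 was at 873 CPM in control, 2134 CPM in old and 663 CPM in young cells. Ifitm6 was at 1988, 3751 and 909 CPM, and Ifitm3 at 898, 1840 and 1928 CPM. Ifitm3 was therefore the 1 gene of the 4 whose young level was not below the old one. Its log2 ratio over control was 1.91 in the high, 1.59 in the mid and 0.85 in the low band, a narrowing with stage. These proteins block virus entry and are induced by interferon. Of 55 other interferon-response genes listed, 15 reached 10 CPM. Among the 15, 1 was higher and 3 lower by 1.5 times, where 5.29% and 8.07% of all genes were. Their median log2 ratio was 0.06, and at a minimum of 50 CPM it was 0.37. What lay behind the Ifitm ratios was not tested. The whole interferon list summed to 838 CPM in control, 940 CPM in old and 3845 CPM in young cells, so the young library stood apart from both others. Ifi27 was at 101, 57.7 and 209.5 CPM, and Sp100 at 54.1, 67.1 and 143.5 CPM. The young library was also highest for the genes of antigen presentation on MHC class I, which summed to 2936, 2920 and 5831 CPM, with a median log2 ratio of old over control of 0.04.

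Annexins bind membranes in a calcium-dependent way, and Anxa1 limits inflammation. Anxa1 (chr19:20373428-20390944) was at 3250 CPM in control, 5784 CPM in old and 2939 CPM in young cells, a log2 ratio of 0.83 (0.83 to 0.84). The ratio was 1.35 in the high, 1.19 in the mid and 0.69 in the low band. Anxa2 was at 245, 464 and 282 CPM, and Anxa5 at 46.5, 86.6 and 82.2 CPM. Anxa11 was at 130, 203 and 116 CPM. These were the 4 of 6 annexins reaching 10 CPM that were higher by 1.5 times, where 5.29% of all genes were. The median of the 6 was 0.74. Among the S100A proteins the ratio of S100a6 was not shared. S100a8 and S100a9, the calprotectin subunits and named after their values were seen, had log2 ratios of 0.02 and -0.01, and S100a11, a further calcium-binding member, was at 1853 CPM in control and 2139 CPM in old cells. Lgals3, the lectin galectin 3, was at 389, 802 and 480 CPM, a log2 ratio of 1.04.

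Genes of the sterol pathway were higher in the old library, and no member was lower by 1.5 times. The pathway makes mevalonate from acetyl-CoA, then isoprenoids such as farnesyl pyrophosphate, which are used for cholesterol and for attaching lipid tails to proteins. Its genes are switched on together by SREBP2 when cells lack sterols, often with the CCAAT-binding factor NF-Y. The 250 bases before the start of 3 members with ratios near 2 are shown to let the shared motifs be seen. They are RefSeq sequence of the build GRCm38.p6, and capitals mark CCAAT or its complement ATTGG and the sterol element TCACCCCAC.

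Hmgcs1, chr13:119690101-119690350, plus strand: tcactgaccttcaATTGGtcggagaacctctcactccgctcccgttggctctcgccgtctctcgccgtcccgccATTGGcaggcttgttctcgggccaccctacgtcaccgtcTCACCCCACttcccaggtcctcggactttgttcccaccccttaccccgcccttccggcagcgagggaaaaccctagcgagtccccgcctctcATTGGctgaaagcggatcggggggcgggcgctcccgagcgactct
Msmo1, chr8:64733579-64733828, minus strand: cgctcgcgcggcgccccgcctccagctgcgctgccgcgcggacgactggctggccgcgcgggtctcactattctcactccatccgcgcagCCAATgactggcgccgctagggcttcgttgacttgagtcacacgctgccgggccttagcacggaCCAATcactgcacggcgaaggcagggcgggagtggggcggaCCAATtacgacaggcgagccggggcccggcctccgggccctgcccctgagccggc
Nsdhl, chrX:72918271-72918520, plus strand: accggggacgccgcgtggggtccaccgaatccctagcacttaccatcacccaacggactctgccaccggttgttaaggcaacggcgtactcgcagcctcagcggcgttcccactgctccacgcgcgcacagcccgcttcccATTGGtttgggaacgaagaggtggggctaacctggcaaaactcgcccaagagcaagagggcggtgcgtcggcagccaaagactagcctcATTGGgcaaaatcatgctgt

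Of the 14 sterol genes that reached 10 CPM, 10 had an entry among the RefSeq promoters, and 9 of the 10 held CCAAT on either strand. The same letters occurred in 34.5% of all 27025 promoters of this length. TCACCCCAC, searched on both strands, was found in 0.466% of all promoters and in 1 of the 10, that of Hmgcs1. A match is a description of these letters and does not show binding.

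Of 21 listed enzymes 14 reached 10 CPM, of which 10 were higher by 1.5 times, where 5.29% of all genes were. Of the 14, 6 (Hmgcs1, Sqle, Cyp51, Fdft1, Mvd and Nsdhl) reached 10 CPM only through the old library. At the top of the pathway Hmgcs1, a synthase of its first steps, was at 9.54 CPM in control, 19.9 CPM in old and 9.71 CPM in young cells, a log2 ratio of 1.06 (0.95 to 1.17). Its young level lay near the control level. In the isoprenoid branch Pmvk, a mevalonate kinase step, was at 22.9 CPM in control and 38.9 CPM in old cells, and Idi1, the isomerase, at 18.1 and 28.7 CPM. Fdps (chr3:89093588-89101959), farnesyl pyrophosphate synthase and the target of nitrogen-containing bisphosphonates, was at 190.0 CPM in control, 371 CPM in old and 106.5 CPM in young cells. Its log2 ratio was 0.97 (0.94 to 0.99), and it was 0.76 in the high, 0.96 in the mid and 1.15 in the low band. Its young level was below the control level, so the distance from old to young was larger than that from old to control.

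Past the branch point towards cholesterol, Sqle, squalene epoxidase, was at 8.16 CPM in control, 14.9 CPM in old and 2.80 CPM in young cells. By ratio it differed more between control and young than between old and control. Msmo1, a methyl sterol oxidase, was at 30.7, 59.5 and 21.2 CPM, a log2 ratio of 0.96. Nsdhl, a decarboxylating dehydrogenase of the same steps, was at 5.43, 10.2 and 5.23 CPM. Ebp, a sterol isomerase, was at 64.9, 66.0 and 67.9 CPM and showed no ratio beyond its interval (log2 0.03, -0.02 to 0.07). The median log2 ratio of the 14 was 0.76, against -0.07 over all genes, and that of the same 14 was 0.43, 0.59 and 0.88 in the high, mid and low bands. Under the alternatives it lay between 0.68 and 1.16. Between the libraries labelled 3 months the median of control over young was 0.20 for this list. Of its 8 genes at 10 CPM in control or young, 2 were higher in control by 1.5 times, Fdps among them, where 1.82% of all genes were. Genes of sterol sensing and uptake had a median of 0.24, with 0 of 7 past the limit, where 5.29% of all genes were higher and 8.07% lower. Of the prenylation enzymes, which use the farnesyl product, 0 of 6 were higher and 1 was lower. With so few genes these counts are not far from the shares of all genes. Zmpste24, the protease that matures prelamin A, was at 124 CPM in control, 117 CPM in old and 105 CPM in young cells. Tspo, an outer mitochondrial membrane protein that binds cholesterol, was at 1184, 1771 and 798 CPM, a log2 ratio of 0.58 (0.57 to 0.59), just inside the limit.

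**Figure D3:**
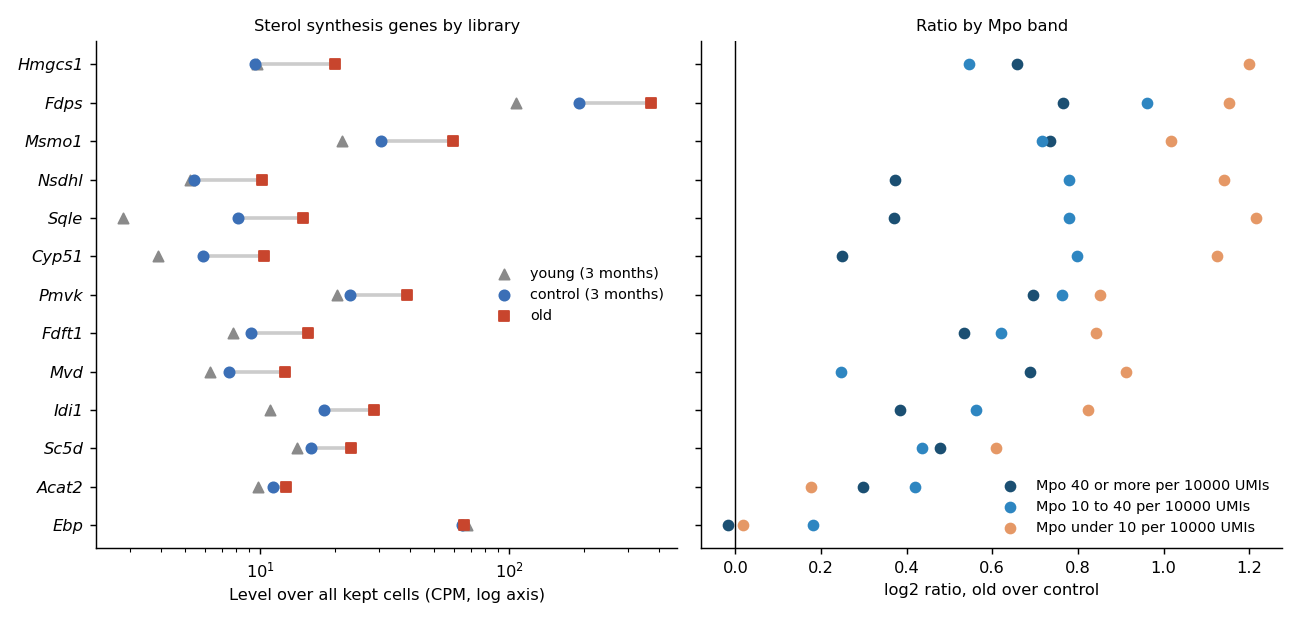
Left, CPM over all kept cells (log axis) of 13 of the 14 sterol synthesis genes with at least 10 CPM in control or old, by library; right, their log2 ratio of old over control in the 3 Mpo bands. Most ratios lie further right in the low than in the high band, and Ebp stays near 0.

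Granule genes are given in the order in which the granules are made. Of the azurophil genes, made first, 14 of 17 reached 10 CPM and their median log2 ratio was -0.20, which turned to 0.20 without scaling for depth. Within the high, mid and low bands it was 0.05, 0.09 and -0.09, and with the old bands weighted to the control shares it was -0.045. The 1 gene past the limit was Ctsc, cathepsin C, which activates granule proteases and was higher with a log2 ratio of 0.86. Elane had a log2 ratio of -0.56 over all cells and -0.34 in the high band. Ctsg, cathepsin G, was at 1036 CPM in control and 1259 CPM in old cells, and in the high band at 4361 and 6681 CPM. Prtn3, proteinase 3, was at 2825 and 2341 CPM. Mpo, which defined the bands, was at 2043 CPM in control, 1478 CPM in old and 2450 CPM in young cells. On this scale elastase and cathepsin G stood in opposite directions within the high band, although both are azurophil proteases.

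Specific granule genes were also divided. Camp, Fcnb, a ficolin, and Chil3, a chitinase-like lectin, had log2 ratios of -0.51, -0.54 and -0.42. Lrg1, a leucine-rich glycoprotein, was at 730 CPM in control, 1415 CPM in old and 387 CPM in young cells, and Cd177, a surface marker of neutrophils, at 507, 765 and 425 CPM. The list thus had no common direction, with a median of 0.22 and 4 of 17 higher by 1.5 times, where 5.29% of all genes were. Of 19 gelatinase granule and late genes reaching 10 CPM, 9 were higher by 1.5 times and 0 lower, where 5.29% of all genes were higher. Their median was 0.51. Asprv1 reached 10 CPM only through the old library, and Retnlg, Mmp9 and Cxcr2 are also part of the maturation sum. Mmp9 (chr2:164940780-164955850), gelatinase B, was at 54.9 CPM in control, 130 CPM in old and 86.7 CPM in young cells, a log2 ratio of 1.24. In the mid band its ratio was -0.05, and with the cells of 20 or more maturation UMIs left out it was 0.35. Mmp9 is part of that sum, so the selection by itself lowers this last value. Cxcr2, the receptor that draws neutrophils out of the marrow, was at 37.8, 76.4 and 27.5 CPM, with log2 ratios from 0.87 to 0.98 in the 3 bands. Unlike Mmp9, Cxcr2 was higher in old cells to a like degree in each band.

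Receptors and mediators of inflammation were more often higher than lower. Of 19 sensing receptors reaching 10 CPM 6 were higher by 1.5 times, where 5.29% of all genes were, and 0 lower. Their median log2 ratio was 0.43, and with the cells of 20 or more maturation UMIs left out it was 0.22. Fpr1, with the largest log2 ratio of the 19 (2.35), reached 10 CPM only through the old library. Cd300lf, an inhibitory receptor, was at 56.2 CPM in control, 101 CPM in old and 44.7 CPM in young cells. Fcgr3, a low-affinity receptor for IgG, was at 135, 236 and 184 CPM, and C5ar1, the receptor of complement C5a, at 107, 159 and 86.5 CPM. Of 11 mediators 4 were higher, where 5.29% of all genes were, and 0 lower. Prok2, with the largest log2 ratio of the 11 (3.21), reached 10 CPM only through the old library. Il1r2, the decoy receptor of interleukin 1, was at 75.2, 142 and 48.3 CPM, with its largest log2 ratio of 1.64 in the high band. Hdc, which makes histamine, was lower at 141, 94.5 and 129 CPM. The NADPH oxidase that makes the respiratory burst had a median of 0.24. Of its 7 genes 0 were past the limit, where 5.29% of all genes were higher and 8.07% lower.

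Genes of marrow retention and of the response to stimulation included members in both directions. Emb, an adhesion protein of the basigin family, was at 36.0 CPM in control, 82.6 CPM in old and 61.6 CPM in young cells. Selplg, the adhesion ligand PSGL-1, was at 36.1, 65.3 and 76.3 CPM, and Ccr1, a chemokine receptor, at 51.5, 86.0 and 22.8 CPM. Cxcr4, which holds neutrophils in the marrow and was named after its values were seen, was at 35.5, 17.8 and 56.7 CPM, a log2 ratio of -0.997. The retention receptor was thus lowest in the old library while Cxcr2 was highest there. Of 13 immediate early genes 4 were higher, where 5.29% of all genes were, and 0 lower. Klf2, a zinc-finger factor of quiescence, was at 51.8, 112 and 69.7 CPM, and Junb, a subunit of AP-1, at 34.4, 71.5 and 39.6 CPM.

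Genes that build ribosomes were lower in the old library. Ribosomes are assembled in the nucleolus by factors that cut and modify ribosomal RNA, many of them induced by the transcription factor Myc. Of 56 listed factors 42 reached 10 CPM, of which 28 were lower by 1.5 times and 0 higher. Over all genes 8.07% were lower. The median log2 ratio of the 42 was -0.66 over all cells, and -0.48, -0.63 and -0.57 in the 3 bands. Nop10, a subunit of the complexes that pseudouridylate RNA, was at 370 CPM in control, 165 CPM in old and 267 CPM in young cells, a log2 ratio of -1.17 (-1.19 to -1.14). Nop58, a core protein of box C/D particles, was at 52.1, 24.9 and 31.1 CPM, and Fbl, the methyltransferase fibrillarin, at 54.5, 29.1 and 52.8 CPM. Of abundant nucleolar proteins named after their values were seen, Npm1, nucleophosmin, was at 374, 210 and 285 CPM, and Ncl, nucleolin, at 259, 150 and 191 CPM. Old cells held the least of each. The median of control over young for the list was 0.42 and that of old over young -0.30, so the control library lay highest and part of the distance from old to control was also found between the libraries labelled 3 months. In the high band the list summed to 6858 CPM in control, 4664 CPM in old and 4169 CPM in young cells, so there the old and young libraries were close and the control stood apart.

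Genes outside this list with low ratios are given singly, since they were named for their ratios and form no list of their own. Srm, spermidine synthase and a target of Myc, was at 65.8 CPM in control, 22.4 CPM in old and 28.8 CPM in young cells, a log2 ratio of -1.56 (-1.62 to -1.49). Set, a histone chaperone, was at 239, 98.5 and 130 CPM, and Npm3, a nucleoplasmin, at 138, 62.6 and 98.97 CPM. Tfrc, the transferrin receptor that brings iron into growing cells, was at 26.8, 7.39 and 16.8 CPM. Myc, named after its values were seen, was at 18.7, 6.59 and 13.2 CPM, a log2 ratio of -1.51. Over all cells the young library lay between control and old for these genes, near the old one for Srm and Set. In the high band Srm was at 250 CPM in control, 122.3 CPM in old and 96.3 CPM in young cells. Set was there at 631, 306.9 and 312 CPM, so for both genes the control stood apart in that band. Ccnd2, a cyclin of the G1 phase, was at 20.2, 5.16 and 27.5 CPM, and Cdk6, its partner kinase, at 63.0, 33.5 and 74.1 CPM. Stk39, a kinase of ion transport, was at 60.2, 21.7 and 61.5 CPM. For Ccnd2, Cdk6 and Stk39 the young library lay at or above the control and only the old library was low.

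Heat shock genes were lower in the old library. Of 13 heat shock genes reaching 10 CPM, 7 were lower by 1.5 times, where 8.07% of all genes were, and 0 higher. Their median log2 ratio was -0.63, and for the same 13 genes the band medians lay from -0.59 to -0.50. Hspe1, the mitochondrial co-chaperonin, was at 158 CPM in control, 52.6 CPM in old and 109 CPM in young cells, a log2 ratio of -1.58 (-1.63 to -1.54). Hspd1, the chaperonin it caps, which is encoded head to head with it on chromosome 1, was at 122, 55.6 and 77.0 CPM. Hspa8, the constitutive HSC70, was at 1012, 573 and 1008 CPM, and Fkbp4, a co-chaperone of HSP90, at 92.0, 43.0 and 76.9 CPM. The young level of Hspa8 was next to the control level, and the old level stood apart. Over all cells the list summed to 2652 CPM in control, 1589 CPM in old and 2552 CPM in young cells. In the high band it summed to 5996, 3664 and 4434 CPM, so there the young library lay nearer to the old one. In the endoplasmic reticulum Hsp90b1, the chaperone GRP94, was at 263, 125 and 236 CPM, and Hspa5, the chaperone BiP, at 398, 228 and 271 CPM. Of 36 genes of this compartment 9 were lower and 1 higher, where 8.07% and 5.29% of all genes were. Their median was -0.33 and became 0.065 without scaling for depth. The higher one was Asns, asparagine synthetase and a target of ATF4, at 37.1 CPM in control, 92.3 CPM in old and 24.95 CPM in young cells, with log2 ratios from 1.08 to 1.38 in the 3 bands.

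**Figure D4:**
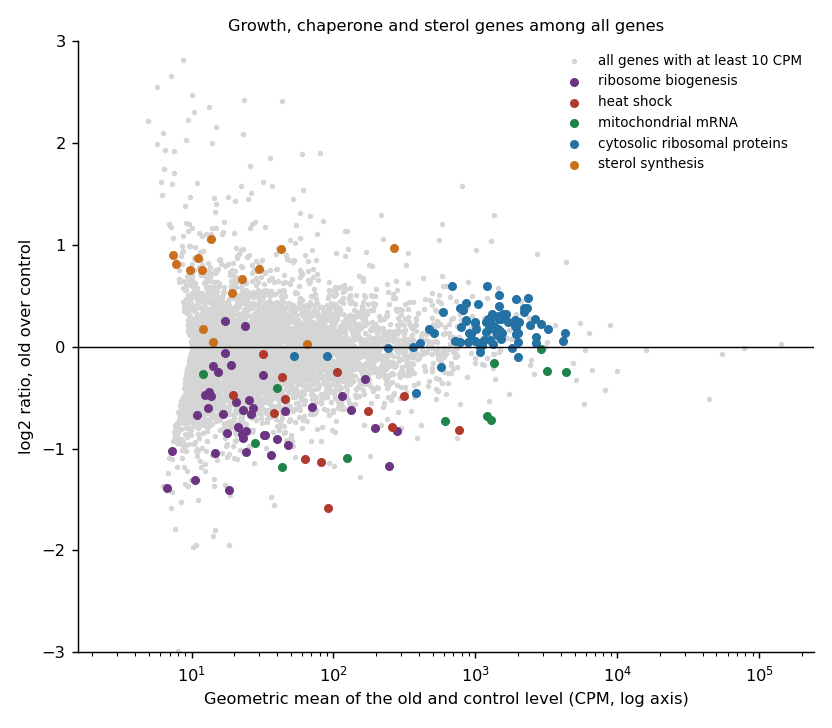
Log2 ratio of old over control (all kept cells) against the mean level of each gene (CPM, log axis), with ribosome biogenesis, heat shock, mitochondrial mRNA, cytosolic ribosomal protein and sterol synthesis genes marked over all other genes in grey; 17 genes fall outside the plotted range. Most ribosome biogenesis genes lie below 0, around a median of -0.66, and most cytosolic ribosomal protein genes lie above 0, around a median of 0.18.

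The mRNAs encoded in the mitochondrial genome were lower as well, whereas the nuclear genes of the same complexes were not. Of 13 such mRNAs 12 reached 10 CPM, of which 6 were lower by 1.5 times, where 8.07% of all genes were. Their median log2 ratio was -0.55 over all cells, and -0.29, -0.51 and -0.58 in the high, mid and low bands. In the high band 2 of the 12 were lower by 1.5 times, where 4.94% of all genes were. With the old bands weighted to the control shares the median over all cells was -0.45. mt-Nd3, a subunit of complex I, was at 65.5 CPM in control, 28.8 CPM in old and 49.2 CPM in young cells, and mt-Nd2 at 184, 85.9 and 162 CPM. mt-Cytb, of complex III, was at 1648, 1001 and 1420 CPM. mt-Co1, of complex IV and named after its values were seen, was at 2943, 2902 and 3128 CPM, so the ratio differed between mRNAs of 1 genome. Of 77 nuclear genes of oxidative phosphorylation 1 was higher and 1 lower, where 5.29% and 8.07% of all genes were, with a median of -0.06. The higher one was Cox7a2l, which joins respiratory complexes, at 90.8, 177 and 148 CPM. The lower one was Cycs, cytochrome c, at 537, 315 and 365 CPM. Proteins of the mitochondrial ribosome had a median of -0.20 over 72 genes. Of these 5 were lower and 0 higher, where 8.07% of all genes were lower, so this share was not above that of all genes, and among the 5 was Mrpl12 at 95.2, 49.9 and 67.3 CPM. The median mitochondrial share of UMIs per cell was 1.31% in control, 1.098% in old and 1.19% in young cells.

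Cytosolic ribosomal proteins went against the factors that assemble ribosomes. Of 85 such genes 82 reached 10 CPM, and 72 of these had a positive log2 ratio, with a median of 0.18. By 1.5 times 2 were higher, where 5.29% of all genes were. The difference depended on stage, with a median of 0.05 in the high, 0.15 in the mid and 0.43 in the low band. In the low band 17 were higher by 1.5 times and 0 lower, where 6.56% of all genes were higher. Rpl10a was at 340 CPM in control and 653 CPM in old cells of the low band, and at 1187 and 1481 CPM in the high band. Rps4x was at 641 and 1228 CPM in the low and at 2061 and 2432 CPM in the high band. Old low-band cells thus kept more of these mRNAs relative to the high band than control cells did. The translation factor Eef1a1, which brings tRNA to the ribosome, followed the same course, with log2 ratios of 0.35, 0.58 and 0.90 in the high, mid and low bands. Eif3f, a subunit of an initiation factor, had ratios of 0.34, 0.73 and 0.88. Eif4a2 and Eif4g1, of the cap-binding complex, were lower, with log2 ratios of -0.84 and -0.78. The translation factors thus had no common direction, with 3 of 35 higher and 3 lower, where 5.29% and 8.07% of all genes were. With the cells of 20 or more maturation UMIs left out, the median of the ribosomal proteins was 0.26 over all cells and not smaller.

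Genes of cell division differed by stage. The mitosis list had a median log2 ratio of 0.39 in the high band, 0.27 in the mid band and -0.05 in the low band. In the high band 15 of 62 were higher by 1.5 times and 0 lower, where 5.07% of all genes were higher. The list summed there to 6174 CPM in control, 7723 CPM in old and 7283 CPM in young cells, so the young library lay nearer to the old one. Nusap1, a spindle protein, was at 39.4 CPM in control and 77.6 CPM in old cells of the high band, and at 169 and 205 CPM in the low band. Plk1, a mitotic kinase, was at 33.2 and 59.3 CPM in the high and at 58.6 and 70.9 CPM in the low band. Ccnb1 and Ccnb2, the mitotic cyclins, had log2 ratios of 0.78 and 0.75 in the high band and of 0.42 and 0.38 in the low band. Mki67, a marker of proliferating cells, was at 118 CPM in control, 99.4 CPM in old and 115 CPM in young cells, with log2 ratios of 0.25, -0.04 and -0.41 in the 3 bands. Its direction thus differed between the high and low bands. The replication list had a median of -0.09 over 56 genes, with 0 higher and 1 lower, where 5.29% and 8.07% of all genes were. Cdkn2c and Cdkn2d, inhibitors of the G1 kinases, had log2 ratios of 0.99 and 0.95 in the high band. Of 33 histone genes 10 were higher, where 5.29% of all genes were, and 0 lower. Their median was 0.30, and at a minimum of 50 CPM it was 0.091. Hist1h1c, a linker histone, was at 44.7, 75.3 and 64.0 CPM.

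Of the genes that reached 10 CPM in each band, 127 of 4867 were higher by 1.5 times in all 3 bands and 85 were lower in all 3. In the high band alone 65 were higher and 13 lower, and in the low band alone 88 were higher and 139 lower. By the change of the ratio from the high to the low band, for genes at 50 CPM or more in old or control in both of these bands, the largest increases were those of Ifitm1, Emb, Rps12, Rps4x and the Rps12 pseudogene copy Rps12-ps3. Rps12, a protein of the small subunit, had log2 ratios of 0.0035, 0.22 and 0.85. Emb had 0.33, 0.84 and 1.48. By the same limit the largest declines were those of Lipg, Ifitm3, Lockd, Id2 and Orm1. Lipg, the endothelial lipase, was at 44.0 CPM in control, 107 CPM in old and 5.64 CPM in young cells, with log2 ratios of 2.26, 1.79 and 1.03. Id2, an inhibitor of helix-loop-helix factors, had ratios of 1.09, 0.56 and 0.17. Cystm1, a small membrane protein under 50 CPM in the high band and so outside this order, had 3.10, 2.35 and 1.34. Lipg, Ifitm3, Id2 and Cystm1 thus differed more in the high than in the low band.

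**Figure D5:**
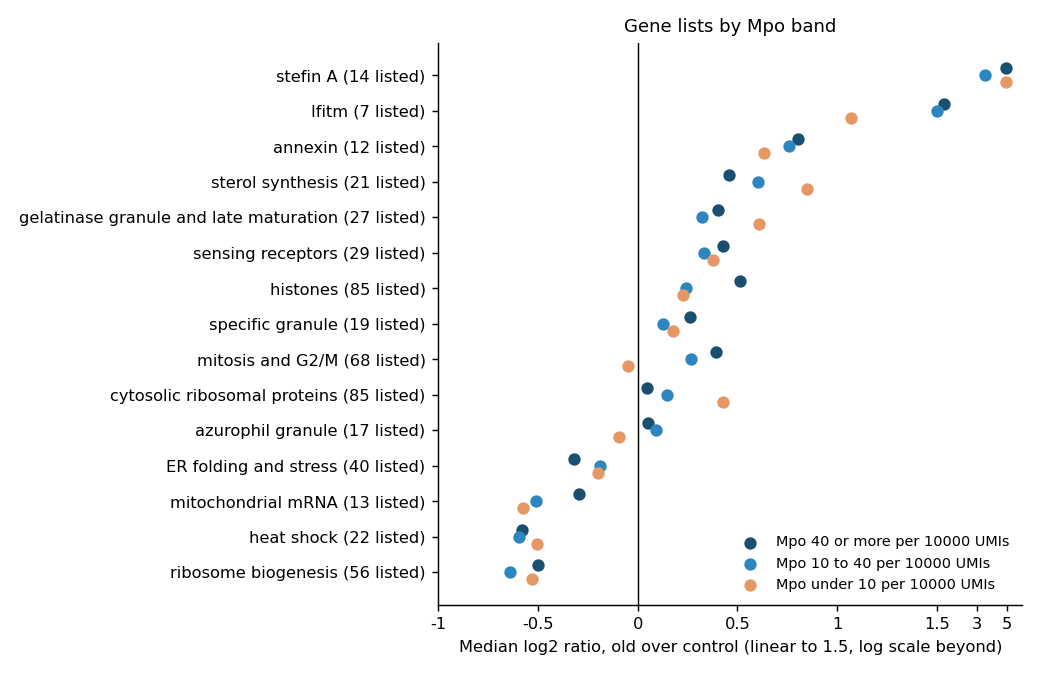
Median log2 ratio of old over control of 15 gene lists in the high, mid and low Mpo bands, over members with at least 10 CPM in control or old in that band (axis linear up to 1.5 and logarithmic beyond). Stefin A lies furthest right in every band (4.93, 3.43 and 4.93), ribosome biogenesis lies between -0.64 and -0.50, and cytosolic ribosomal proteins move from 0.05 to 0.43.

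Further lists are read against the 5.29% of all genes that were higher and the 8.07% that were lower. The proteasome had 0 of 31 genes past it in either direction and a median log2 ratio of 0.01. Of 14 p53 targets and cell cycle inhibitors 1 was higher and 1 lower. Cdkn1a, the p53 target p21, was at 5.99 CPM in control, 7.21 CPM in old and 6.76 CPM in young cells. Of 20 lamina and chromatin genes 1 was higher, Padi4, which citrullinates histones during the release of extracellular traps, at 45.7, 73.7 and 55.1 CPM. Of 22 antioxidant genes 1 was higher by 1.5 times and 0 lower, and Gclm, a subunit of the enzyme that limits glutathione synthesis, was at 98.2, 146 and 54.4 CPM. Of 10 lysosomal genes 2 were higher, among them Ctsd, cathepsin D, at 123, 234 and 138 CPM. Of 16 glycolytic genes 3 were higher and 0 lower, namely Slc2a3, a glucose transporter, Pgk1 and Pkm. Slc2a3 was at 35.0, 63.5 and 32.6 CPM and Pkm, pyruvate kinase, at 965, 1457 and 961 CPM. For both, the control and young libraries lay next to each other.

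Where the old or the control level was 50 CPM or more, the lowest ratios over all cells belonged to haemoglobin genes. Hbb-bs was at 89.8 CPM in control, 5.05 CPM in old and 308 CPM in young cells, and Hba-a1 at 70.2, 5.66 and 244 CPM. The 11 erythroid markers summed to 232, 19.9 and 809 CPM, and 7 control, 3 old and 29 young cells met the erythroid rule. In control the 1% of cells with most Hbb-bs held 87.4% of its UMIs. With cells of other blood types left out, the log2 ratio of Hbb-bs moved from -4.15 to -2.26 and that of Hba-a1 from -3.63 to -2.40, so both stayed lower in old. In the mid band, among genes with at least 50 CPM there, the lowest ratios were those of Jchain, Prss34, Srm, Mcpt8 and Hspe1. Jchain, the joining chain of antibodies, was at 132 CPM in control and 2.55 CPM in old cells of this band, and at 7.42 and 14.7 CPM in the low band, where its direction was the opposite. Prss34 and Mcpt8, proteases of basophils, had log2 ratios of -2.27 and -1.97 in the mid band. For Prss34, at 47.5 CPM over all control cells, 1% of the cells held 87.8% of the UMIs. Markers of monocytes summed to 25.4, 34.2 and 301 CPM, and 12 stem and progenitor markers to 13.1, 8.62 and 58.9 CPM. In the control and old libraries the other blood cells were thus few. Values with these cells left out are given above for Hbb-bs and Hba-a1 only. Their part in the ratios of Jchain, Prss34 and Mcpt8 was not tested.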

How the data were processed

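FACS-sorted CD133+ bone marrow cells of 3 libraries were used, with 1 library a group and the cells of 3 mice in each. The deposited values are raw UMI counts per gene and cell, which per the submitters' notes the authors made with STAR and Cell Ranger 2.1.0 on mm10. The files hold 27998 genes. Cells were kept as stated in the report, UMI counts were summed per library and Mpo band, and sums were scaled to 1000000 UMIs (CPM). Ratios carry exact conditional binomial 95% intervals and shares Clopper-Pearson intervals. No test was made, since p-values need more than 1 library a side. The depth sets a limit of 0.0313 CPM in control and 0.0244 CPM in old cells for a gene with 0 UMIs, taken as 3 UMIs.

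Genes that reached 10 CPM in control or old were counted past a limit of 1.5 times. Named genes, among those with at least 50 CPM, were the 15 highest and 15 lowest ratios with 1 direction in all bands, the 5 highest and 5 lowest in each band, the 5 largest increases and declines from high to low band, up to 4 members of each list, and all study, sterol, sex-linked and substrain genes. Genes outside this rule (Stfa2, S100a8, S100a9, Fpr1, Prok2, Cxcr4, Myc, Npm1, Ncl, mt-Co1, Icam2 and Erg) were chosen after their values were seen. Some genes that this rule or a list holds enter the counts, sums and medians but are not reported here singly. The members and lists were chosen with earlier results of these data known. Cells of another blood type were those with at least 3 markers of it detected and 5 or more marker UMIs per 10000 (erythroid 50). Scrublet called 2 control and 307 old cells, which is too few in control to be used, and no doublets were removed. Positions are from GENCODE M21 (GRCm38), and promoters from RefSeq. Tools were scanpy 1.11.5, matplotlib 3.10.9, pandas 2.3.3, scipy 1.17.1 and numpy 2.4.6 on Python 3.11.15, and the scripts were checked on simulated data. Alternatives covered UMI limits, scaling, cell weighting, thinning to 3000 UMIs, other blood cells, doublet scores, gene minimum, fold limit and Mpo limits.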

Additional observations from a re-analysis of the deposited data

Results flagged for a closer look

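Mcpt8, a protease of basophils, differed in direction between bands. In the high band it was at 20.4 CPM in control and 54.7 CPM in old cells (log2 ratio 1.42), and in the mid band at 117 and 29.9 CPM (log2 ratio -1.97). The distance between both ratios was 3.39 on the log2 scale and was not tested. The low band lay between them at -0.44. In control the 1% of cells with most Mcpt8 held 79.8% of its UMIs and in old 59.0%, and 12 control and 4 old cells met the rule for basophils and mast cells. The part of these cells in the difference was not tested.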

How the results depend on the processing

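Of 292 counts, band shares and list medians recomputed under alternatives, 259 kept their direction within 0.25 (log2) for medians, 1.5 times for counts and 1.2 percentage points for shares, 30 moved further and 3 reversed. Medians below 0.1 in size were given no direction. Without scaling for depth, 1309 genes were higher and 72 lower, and list medians became 0.46 for interferon response, 0.43 for MHC class I, 1.16 for sterol synthesis, 0.58 for cytosolic ribosomal proteins, 0.61 for specific granule, 0.88 for gelatinase granule, 0.49 for mitosis, 5.28 for stefin A, 1.55 for Ifitm, 1.13 for annexins, 0.70 for histones, 0.82 for sensing receptors, -0.24 for heat shock, -0.25 for ribosome biogenesis and -0.15 for mitochondrial mRNA. Azurophil granule (0.20) and endoplasmic reticulum genes (0.065) reversed there, which follows from the greater depth of old cells. At a minimum of 50 CPM the counts were 98 higher and 105 lower, with medians of 0.37 for interferon response and 0.76 for gelatinase granule. With no minimum they were 1945 and 2812, and at a limit of 2 times 98 and 73. With UMI percentiles over both libraries the stefin A median was 5.202, and with cells of 20 or more maturation UMIs left out, added after seeing the data, it was 4.37 with 249 genes higher and 316 lower. With Mpo limits of 20 and 5 the lower genes of the mid band numbered 238, and the shares of the mid and low bands differed by -9.27 (reversed) and 12.2 percentage points. With old bands cut at the control ranks 523 genes were lower in the high band. The cause of the latter moves was not tested. Of 2366 values of 169 named genes 90 crossed the limit of 1.5 times by a change of over 0.1 (log2) or moved by more than 1.5 times. The sign changed under at least 1 alternative for 16 named genes, among them Prom1 (-0.22 to 0.22), Prtn3 (-0.36 to 0.12), Mki67 (-0.33 to 0.14), Ms4a3 (-0.25 to 0.23) and Zmpste24 (-0.20 to 0.30), mostly where depth was not scaled. Of the 16, 0 were past 1.5 times as reported. No paired analysis was possible because each group has 1 library. No replicate could be left out for the same reason, and differences between mice, sorts and library preparations cannot be told apart from age.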

Other observations

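Iron genes other than Tfrc did not share its ratio. Fth1 and Ftl1, the subunits of ferritin that store iron, were at 462 and 2168 CPM in control, 656 and 2630 CPM in old, and 598 and 2263 CPM in young cells. Alas1, which starts haem synthesis, was at 248 CPM in control, 274 CPM in old and 214 CPM in young cells. Of 10 such genes 0 were higher by 1.5 times, and Tfrc was the 1 that was lower, where 5.29% and 8.07% of all genes were.

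Granule protease inhibitors outside the stefin A cluster were also measured. Slpi, an inhibitor of elastase, was at 247 CPM in control, 431 CPM in old and 377 CPM in young cells, with log2 ratios of 0.40, 0.29 and 0.88 in the high, mid and low bands. Serpinb1a, which inhibits elastase and cathepsin G, was at 1808, 2472 and 1532 CPM, with log2 ratios from 0.40 to 0.58 in the 3 bands. In the BCL2 family the median log2 ratio was 0.12. There 0 of 6 genes were past 1.5 times, where 5.29% of all genes were higher and 8.07% lower.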
